A study of Caenorhabditis elegans with 7 samples.

Results

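The synaptic vesicle endocytosis genes of Caenorhabditis elegans described here are 10 genes, chc-1, apa-2, unc-11, unc-41, ehs-1, itsn-1, unc-57, dyn-1, unc-26 and rme-1. They were found by their symbols in the annotation of the array, which assigned 26 of its 22548 probe sets to them, between 1 and 10 probe sets a gene. None of the 26 was shared with another gene symbol, and no filter on low values was used, so every member was tested among the 17138 genes with a probe set of their own.

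Transcripts were measured on Affymetrix GeneChips in 2 kinds of cultured embryonic cells. The A-class profile had 3 arrays of cells from unc-4::GFP animals, sorted by FACS for the green marker, which about 90% of the collected cells carried. UNC-4 is a homeodomain protein of A-class motor neurons, the cholinergic neurons that drive backward movement. The embryonic reference profile had 4 arrays of all living cells, those not stained by propidium iodide, from cultures of the wild-type strain N2. Both kinds of cells were released from embryos and held in culture for 24 hours, and each array started from 100 ng of total RNA that was amplified before labeling. The labels call the arrays of a group biological replicates. The reference held every cell type of the culture, neurons included, and carried no GFP reporter, so the comparison is of a sorted sample with a mixture. The reporter is also active in SAB motor neurons and a pharyngeal neuron, and the sorted cells were not a single type of neuron. In such bulk RNA, fewer cells that express a gene and less of its RNA per cell cannot be told apart.

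A neuron that releases transmitter must retrieve the membrane and proteins of its synaptic vesicles. In the clathrin pathway, adaptors gather vesicle proteins on the plasma membrane and recruit a clathrin coat, endophilin and dynamin shape and cut the neck of the bud, and synaptojanin changes the membrane lipids so that the coat comes off. Most of these proteins also act in endocytosis outside the nervous system, while a few, such as stonin and the neuronal form of AP180, are best known from synapses.

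The marker genes set the background for these values. By the rule for calls given below, 2.21% of all genes were higher in A-class cells and 3.31% lower. Of 7 A-class markers 4 rose in A-class cells (unc-4, unc-3, unc-17 and acr-12), and the summed intensity of the 7 was 3203 to 4807 on A-class arrays and 1038 to 1193 on reference arrays. With the fluidics module as a block 2 of the 4 passed, unc-4 and unc-3. None of 7 body wall muscle, 7 hypodermal, 7 intestinal or 5 pharyngeal muscle markers passed in either direction, with medians of -0.64, -0.73, -0.66 and -0.34 on the log2 scale. Summed intensities of the body wall muscle, hypodermal and intestinal lists were lower on every A-class array than on any reference array. Without the brightest gene of each list this held for body wall muscle, while the hypodermal sum without sqt-3 was 1250 to 1647 on A-class arrays and 1363 to 1852 on reference arrays. Of the hypodermal markers 3 of 7 had a positive difference, and elt-1 had every A-class array above the reference arrays (1.05 on the log2 scale, limma, adjusted p = 0.0143). Of 7 touch neuron markers 1, mec-7, was lower (list median -0.91), a call lost without any 1 of 6 of the 7 arrays and with the module as a block. The touch neuron sum was 725 to 781 on A-class arrays and 1405 to 3001 on reference arrays. Without mec-7, the brightest, it was 455 to 571 on A-class arrays and 786 to 1565 on reference arrays. None of 6 B-class and VD/DD markers passed (median -0.07). None of 5 germline markers passed (median 0.24), and their sum was 415 to 897 on A-class arrays and 359 to 429 on reference arrays. Without glh-1, the brightest of them, the germline sum was 243 to 299 on A-class arrays and 209 to 262 on reference arrays. All A-class arrays came from 1 chip lot and all reference arrays from another, and no hybridization day held both groups, so lot, day and cell type cannot be told apart in what follows. The fluidics module, the station that washed and stained the chip, did hold both groups on 2 of 3 modules, and values within modules are given where they bear on a result. Module 1 held A-class arrays 2 and 3 and reference arrays 1 and 4. Module 2 held only A-class array 1 and reference array 2, so a value within module 2 is 1 array minus 1 array.

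Of the 10 endocytosis genes, 2 rose in A-class cells and none fell. The genes that rose were unc-41, which encodes stonin, and unc-11, which encodes AP180, both adaptors for vesicle proteins. A gene was read from its most specific probe set, and it was called at an adjusted p under 0.01 in limma, with Benjamini-Hochberg adjustment over all probe sets, and at least a 1.7-fold difference. The same rule called 2.21% of all genes in the higher and 3.31% in the lower direction. At an adjusted p under 0.05, unc-57 was a further gene past the fold limit (3 of 10 higher and 0 lower), beside 4% of all genes higher and 6.56% lower. The remaining 8 endocytosis genes did not pass. Their fitted differences ran between -1.09 for chc-1 and 1.02 for unc-57 on the log2 scale. The median of the 10 genes was 0.36, beside 0.05 for all genes, whose middle values (lower to upper quartile) ran from -0.24 to 0.28. Every A-class array was above every reference array for 5 of the 10 genes (unc-41, unc-11, unc-57, ehs-1 and itsn-1), an order found for 17.1% of all genes. The reverse order, found for 13.6% of all genes, was seen for none of the 10.

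**Figure D1:**
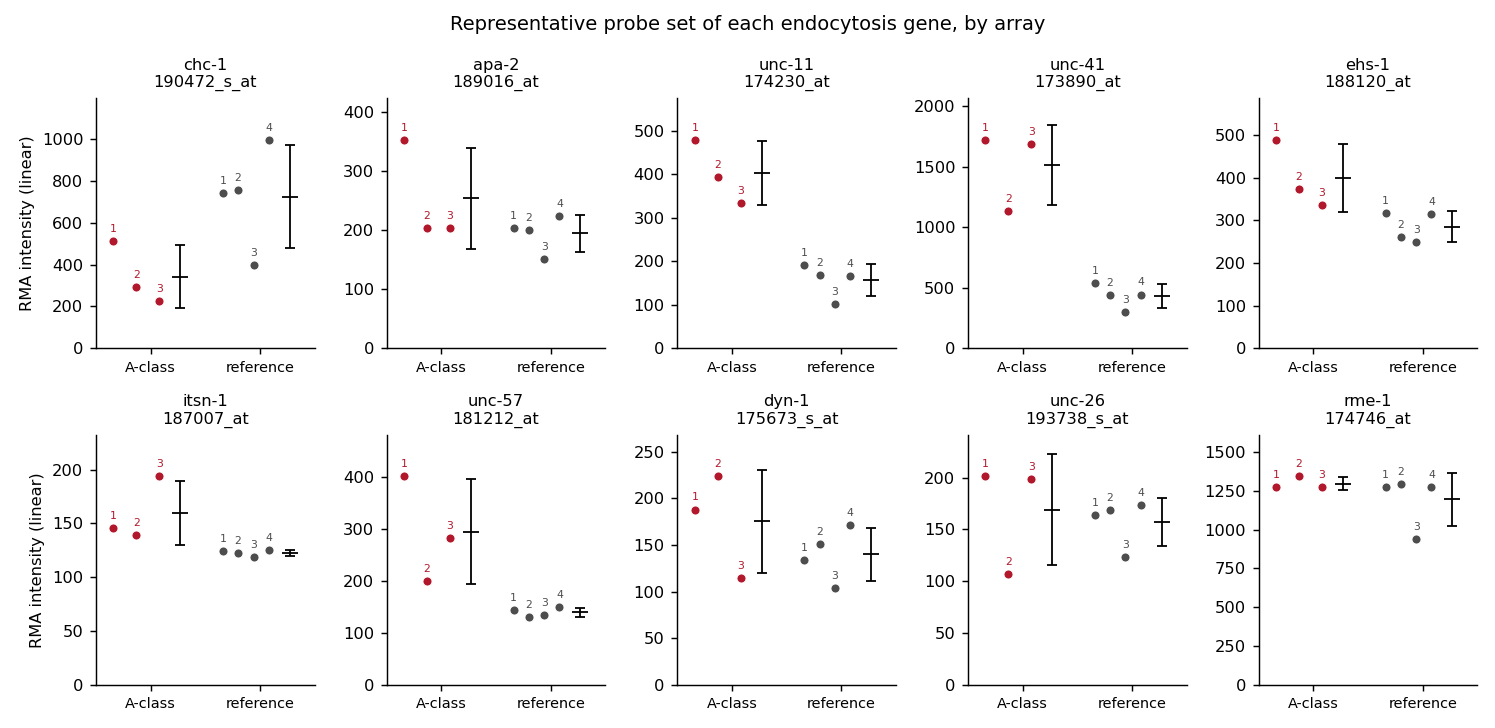
RMA intensity (linear scale, from 0) of the representative probe set of each endocytosis gene on 3 A-class arrays (red, left) and 4 reference arrays (gray, right), each point numbered by its replicate, with the mean and SD as a bar beside the points. The groups do not overlap for unc-11, unc-41, ehs-1, itsn-1 and unc-57, and reference replicate 3 is the lowest reference point in 9 of the 10 panels.

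The coat genes showed no rise that passed. chc-1 encodes the clathrin heavy chain, the building block of the coat. Its probe set, 190472_s_at, read 511, 292 and 225 on A-class arrays 1 to 3, against 743, 759, 397 and 998 on reference arrays 1 to 4. A-class array 1 was above reference array 3, and otherwise the A-class arrays were the lower ones. chc-1 averaged 343 ± 150 in A-class cells and 724 ± 247 in reference cells (SD, n = 3 and 4), a log2 difference of -1.09 (95% interval -1.91 to -0.28) that did not pass (limma, adjusted p = 0.0698). It was -1.75 within fluidics module 1 and -0.57 within module 2.

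apa-2 encodes the alpha subunit of AP-2, the complex that links clathrin to the plasma membrane and to cargo, and its 2 probe sets gave different answers. Probe set 189016_at, which represents the gene, read 353, 204 and 204 in A-class cells, against 204, 200, 150 and 223 in reference cells. The groups overlapped, with a log2 difference of 0.35 (95% interval -0.17 to 0.87, limma, adjusted p = 0.308). Probe set 174879_at read 293, 180 and 222 in A-class cells, against 114, 88.7, 50.6 and 96.2 in reference cells. Here every A-class array was above every reference array, by 1.44 on the log2 scale (95% interval 0.79 to 2.09), and the adjusted p of 0.0122 (limma) lay just outside the threshold. It passed without the dimmest 30% of probe sets (adjusted p = 0.00818), after quantile normalization once more (1.55, adjusted p = 0.00719) and in SAM. Leaving out any 1 array did not make it pass (limma, adjusted p 0.0115 to 0.0420). Nor did it pass with module, hybridization day or replicate number as a block (limma, adjusted p = 0.0288, 0.0574 and 0.0222).

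Both cargo adaptors rose. UNC-41, the worm stonin, is an adaptor linked to the retrieval of the calcium sensor synaptotagmin. Its representative probe set, 173890_at, read 1725, 1133 and 1692 in A-class cells, against 542, 437, 297 and 443 in reference cells. The lowest A-class array was above the highest reference array, and the difference was 3.55-fold (95% interval 2.46 to 5.12, limma, adjusted p = 0.00218). It was 1.5 within fluidics module 1 and 1.98 within module 2 on the log2 scale, and the call was lost without A-class array 1 or 3 or reference array 2 (adjusted p up to 0.0123). The other unc-41 probe set, 193062_s_at, read 514, 217 and 407 in A-class cells, against 164, 130, 70.9 and 141 in reference cells. These groups were also apart, by 1.56 (95% interval 0.75 to 2.38), and the adjusted p of 0.0206 (limma) did not pass. A-class array 2 was the lowest A-class array on both probe sets.

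UNC-11, the worm AP180, promotes assembly of clathrin and carries the vesicle protein synaptobrevin into the forming vesicle. Probe set 174230_at read 480, 394 and 333 in A-class cells, against 191, 168, 103 and 166 in reference cells. The A-class arrays were all above the reference arrays, by 1.38 on the log2 scale (SE 0.228, limma, adjusted p = 0.00591), and the call was lost without any 1 A-class array or reference array 2 or 4 (adjusted p up to 0.0231). None of the other 9 unc-11 probe sets passed, and their groups overlapped in every case. Their log2 differences lay between 0.06 and 0.46. The only other unc-11 probe set that ends in _at alone, the suffix for probes meant to match 1 transcript, was 176648_at. It read 65.7, 85.7 and 62.5 in A-class cells, against 69.1, 58.6, 65.7 and 76.1 in reference cells, a log2 difference of 0.07. Of the other 8, 6 carry the suffix _x_at, which marks probes that may bind other transcripts, and 2 carry _s_at, which marks probes shared by several transcripts.

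The scaffold genes were separated between the groups by small differences that did not pass. EHS-1 is the worm Eps15 and ITSN-1 the worm intersectin, partners that help to organize the endocytic site. ehs-1 (188120_at) read 490, 374 and 337 in A-class cells, against 317, 260, 248 and 316 in reference cells. Every A-class array was above the reference arrays, by 0.48 on the log2 scale (95% interval 0.10 to 0.86, limma, adjusted p = 0.0821). itsn-1 (187007_at) read 146, 140 and 194 in A-class cells, against 124, 122.2, 119 and 125 in reference cells. The 4 reference arrays were close together (SD 2.80) and below all A-class arrays, and the log2 difference was 0.37 (95% interval 0.05 to 0.68, limma, adjusted p = 0.0993).

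Of the genes that bend, cut and uncoat the vesicle, unc-57 came nearest to the threshold. It encodes endophilin A, which curves membrane and recruits synaptojanin. Its single probe set, 181212_at, read 401, 200 and 283 in A-class cells, against 144, 130, 135 and 149 in reference cells. The reference arrays were close together, and the A-class arrays were all above them but spread widely, with array 1 the highest. unc-57 averaged 294 ± 100.8 in A-class cells and 140 ± 8.83 in reference cells (SD, n = 3 and 4), a log2 difference of 1.02 (95% interval 0.53 to 1.52) with an adjusted p of 0.0155 (limma). It passed without A-class array 2 (1.27, adjusted p = 0.00510), after quantile normalization once more (1.14, adjusted p = 0.00502) and in SAM. Leaving out any other single array did not make it pass (limma, adjusted p up to 0.0509). Nor did it pass with module, hybridization day or replicate number as a block (limma, adjusted p = 0.0592, 0.0408 and 0.0360). Its log2 difference was 0.697 within fluidics module 1, below the fold limit, and 1.63 within module 2.

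dyn-1 encodes dynamin, the GTPase that cuts the neck of the bud. Probe set 175673_s_at read 188, 224 and 115 in A-class cells, against 134, 151, 104 and 171 in reference cells. The groups overlapped, and the log2 difference was 0.30 (95% interval -0.28 to 0.87, limma, adjusted p = 0.430). The other dyn-1 probe set, 188161_s_at, averaged 41.4 ± 2.83 in A-class cells and 36.7 ± 2.50 in reference cells (SD, n = 3 and 4) and did not pass.

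unc-26 encodes synaptojanin, the lipid phosphatase of uncoating, and its 4 probe sets were not alike. The representative, 193738_s_at, read 201, 107 and 199 in A-class cells, against 163, 168, 123 and 173 in reference cells, with A-class array 2 below and arrays 1 and 3 above all reference arrays. Its log2 difference was 0.06 (95% interval -0.49 to 0.61, limma, adjusted p = 0.881). Probe set 175739_s_at read 183, 102 and 204 in A-class cells, against 80.2, 62.3, 32.0 and 65.8 in reference cells. On it the A-class arrays were all above the reference arrays, by 1.46 (95% interval 0.67 to 2.25), and the adjusted p of 0.0239 (limma) did not pass. The log2 differences of 176855_s_at and 175740_s_at were 0.02 and 0.17, and neither passed. The annotation gives 175740_s_at under 2 gene IDs with the unc-26 symbol, and its mean intensity was at the 5.54 percentile of all probe sets.

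rme-1 encodes an ATPase of the EHD family that returns membrane from recycling endosomes to the cell surface, first studied in the worm's coelomocytes, oocytes and intestine. Its representative, 174746_at, read 1273, 1343 and 1273 in A-class cells, against 1276, 1295, 938 and 1273 in reference cells. The groups overlapped, with a log2 difference of 0.13 (95% interval -0.20 to 0.46, limma, adjusted p = 0.548). Probe set 185746_s_at read 231, 183 and 147 in A-class cells, against 416, 371, 306 and 429 in reference cells. It fell by 1.04 on the log2 scale (95% interval -1.46 to -0.61, limma, adjusted p = 0.00841), with every A-class array below every reference array, and the call was lost without any 1 of the 7 arrays (adjusted p 0.0104 to 0.0304). The summed intensity of 7 intestinal markers was 762 to 868 on A-class arrays and 914 to 1819 on reference arrays. Without act-5, the brightest of them, it was 576 to 668 on A-class arrays and 639 to 1290 on reference arrays. The sum of 4 coelomocyte markers was 323 to 441 on A-class arrays and 357 to 461 on reference arrays, where cup-5 alone passed (-1.02), a call lost without any 1 of 6 of the 7 arrays (adjusted p up to 0.0202) and with the module as a block (adjusted p = 0.0194). The 5 germline markers, none of which passed, summed to 415 to 897 on A-class arrays and 359 to 429 on reference arrays. Without glh-1 the germline ranges overlapped, at 243 to 299 and 209 to 262. The part of intestinal, coelomocyte or germline cells in the rme-1 values was not tested.

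Counted by probe set, 2 of the 26 passed as higher in A-class cells and 1 as lower, beside 2.2% and 3.46% of all 22548 probe sets. In 8 of the 26 every A-class array was above every reference array, and in 1 below, beside 16.9% and 14% of all probe sets. Just inside the threshold were unc-11 174230_at and rme-1 185746_s_at, and just outside it apa-2 174879_at and unc-57 181212_at, whose values are given above.

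**Figure D2:**
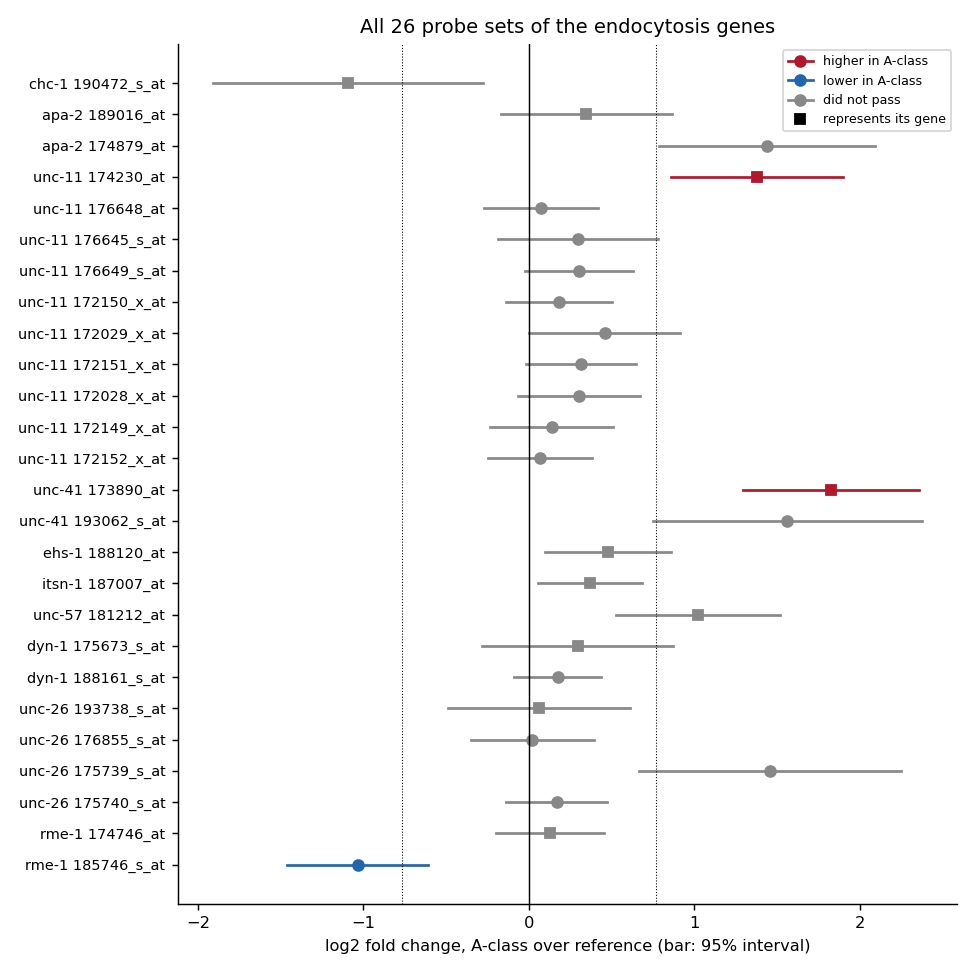
Log2 fold change, A-class over reference, with its 95% interval from limma, for all 26 probe sets of the 10 endocytosis genes. The probe sets that passed are unc-41 173890_at at 1.83, unc-11 174230_at at 1.38 and rme-1 185746_s_at at -1.04.

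For 4 of the 10 genes, probe sets of the same gene differed in their change between the cell types. chc-1, ehs-1, itsn-1 and unc-57 had 1 probe set each and could not be compared in this way. The log2 difference between each other probe set of a gene and its representative was taken within each array, and this difference was compared between the groups with limma over the 3672 such pairs of 2998 genes. The comparison was chosen after the members' values had been seen. At an adjusted p under 0.01, 7.95% of all pairs passed, and 4 of the 16 pairs of endocytosis genes did. The pairs of a gene share its representative and are not independent, and most of the 16 were of unc-11. The share of the 2998 genes with a pair that passed was not taken.

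The change of unc-26 175739_s_at was higher than that of 193738_s_at by 1.40 on the log2 scale (95% interval 0.91 to 1.88, limma, adjusted p = 0.00352). It was still past the threshold with the fluidics module as a block (1.23, adjusted p = 0.00921). The change of rme-1 185746_s_at was lower than that of 174746_at, with a log2 difference of -1.16 (95% interval -1.58 to -0.74, limma, adjusted p = 0.00375). That of apa-2 174879_at was higher than that of 189016_at by 1.09 (95% interval 0.64 to 1.55, limma, adjusted p = 0.00618). For unc-11 the change of 176648_at was lower than that of 174230_at, with a log2 difference of -1.31 (95% interval -1.87 to -0.75, limma, adjusted p = 0.00715). The 2 differed in brightness, with mean intensities at the 48.7 percentile of all probe sets for 176648_at and the 85.1 percentile for 174230_at. Against 174230_at the other 8 unc-11 probe sets had log2 differences from -1.32 to -0.92 and adjusted p-values of 0.0109 to 0.0589. With the module as a block, the apa-2, rme-1 and unc-11 pairs had adjusted p-values of 0.0191, 0.0160 and 0.0131 (limma). With the replicate number as a block none of the 4 pairs passed (adjusted p 0.0268 to 0.0503). Each of the 4 calls was lost without some single arrays. The apa-2 pair passed only without reference array 1 and the unc-11 pair only without A-class array 2, while the rme-1 and unc-26 pairs were lost without reference array 2 or 4 or A-class array 3.

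**Figure D3:**
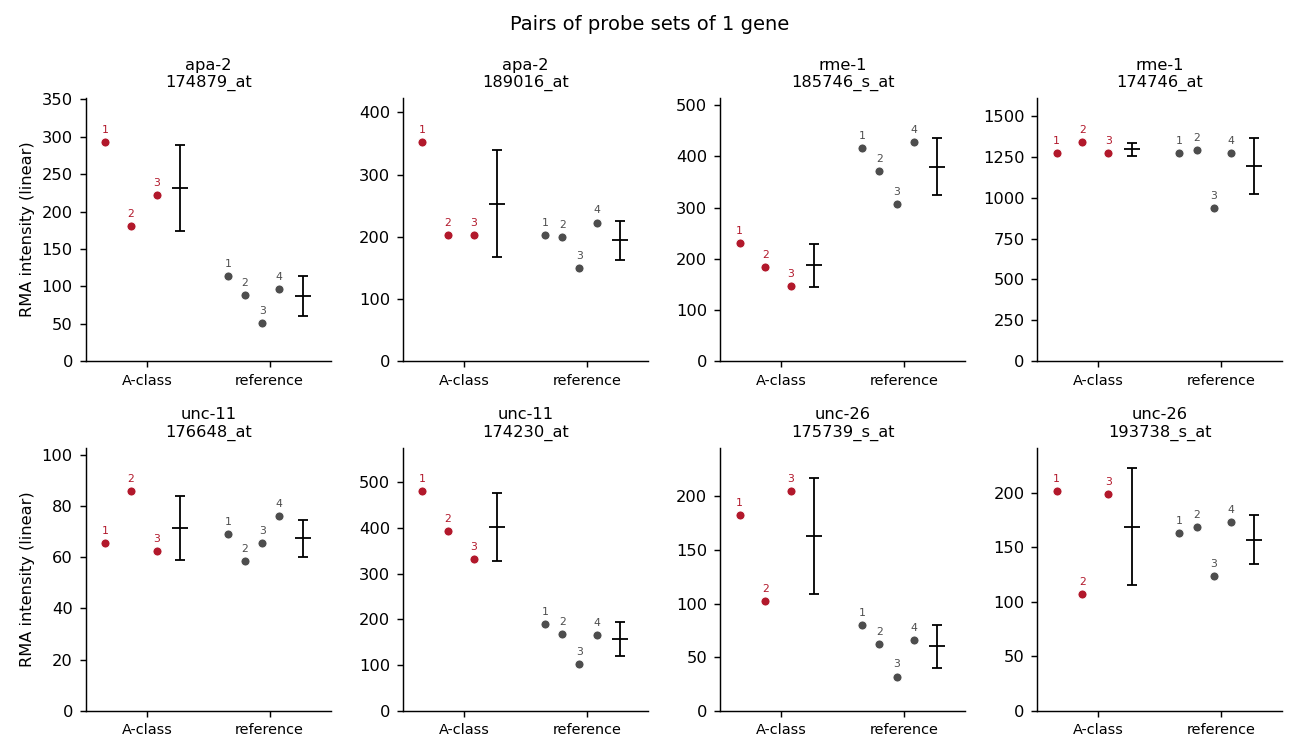
RMA intensity (linear scale, from 0) of both probe sets of the 4 pairs that passed, side by side for each gene, on 3 A-class arrays (red, left) and 4 reference arrays (gray, right), with the mean and SD as a bar beside the points. In each pair the groups overlap on 1 probe set (apa-2 189016_at, rme-1 174746_at, unc-11 176648_at, unc-26 193738_s_at) and lie apart on the other.

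The 2 unc-41 probe sets did not pass this comparison (log2 difference of 193062_s_at minus 173890_at -0.26, 95% interval -0.70 to 0.17, limma, adjusted p = 0.333), nor did those of dyn-1 (-0.12, adjusted p = 0.757). unc-41 was the single member with more than 1 probe set on which every probe set had the A-class arrays above the reference arrays.

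Single arrays moved several members at once. Reference array 3 was the lowest of the 4 reference arrays for 9 of the 10 genes, all but unc-57, and for 14 of the 26 probe sets, while it was the lowest for 22.9% of all genes and 24.4% of all probe sets. It was the sole array washed on fluidics module 3. Without it unc-41 was at 1.66 (adjusted p = 0.00462) and unc-11 at 1.19 (adjusted p = 0.00690) in limma, both still called, and chc-1 was at -1.36 (adjusted p = 0.0300), not called. A-class array 1 was the highest A-class array for 7 of the 10 genes, beside 29% of all genes. With the fluidics module as a block, which leaves 3 residual degrees of freedom, none of the 10 genes passed, beside 0.426% of all genes higher and 0.478% lower. In that fit unc-41 was at 1.66 (adjusted p = 0.0146) and unc-11 at 1.19 (adjusted p = 0.0172). Reference array 3 was alone on its module, and modules 1 and 2 each held as many A-class as reference arrays. With both conditions the design makes these differences equal to those without reference array 3. The 2 fits are not separate checks of the size of the difference.

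Of 33 other genes of clathrin endocytosis and recycling, 32 were measured (erp-1 was not analysed here), and 1 was higher, 1 was lower and 30 did not pass in A-class cells, where 2.21% of all genes were called higher and 3.31% lower. Their median log2 difference was -0.16, and every A-class array was above the reference arrays for 4 of them and below for 8, orders found for 17.1% and 13.6% of all genes. The gene that rose was piki-1, a kinase that makes phosphoinositides. It read 49.6, 46.8 and 58.8 in A-class cells, against 25.2, 25.8, 21.2 and 33.1 in reference cells, 0.99 higher on the log2 scale (limma, adjusted p = 0.00669). The gene that fell was arf-6, a small GTPase of endosomal recycling. It read 50.1, 32.9 and 54.9 in A-class cells, against 83.9, 132, 108 and 154 in reference cells, a log2 difference of -1.38 (limma, adjusted p = 0.00855). Each call was lost when any 1 of 6 of the 7 arrays was left out, with adjusted p-values up to 0.0285 for piki-1 and 0.0328 for arf-6.

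The partners of the coat members can be read beside chc-1 and apa-2. None of the clathrin light chain clic-1 and the other AP-2 subunits apb-1, aps-2 and dpy-23 passed, with log2 differences of -0.06, -0.26, 0.82 and 0.47. aps-2, the small subunit, had every A-class array above every reference array (496 ± 140 in A-class cells and 278 ± 56.98 in reference cells, SD, n = 3 and 4, limma, adjusted p = 0.0353). Among 9 genes of endosomal recycling, the group of rme-1, arf-6 was the 1 gene that passed and the median was -0.16. The median was -0.20 for 6 early coat nucleators, 0.40 for 5 phosphoinositide enzymes, -0.08 for 6 BAR-protein and actin genes and -0.44 for the uncoating genes dnj-25 and hsp-1.

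Other coats and the rest of the synaptic vesicle cycle were set beside the 10 genes. AP-1 and AP-3 build coats at the Golgi and endosomes, and none of their 7 measured subunit genes passed (median 0.26, aps-3 not analysed here). Of 12 genes of vesicle cargo and transmitter release, 7 were higher in A-class cells (sng-1, snn-1, unc-17, ric-4, unc-18, unc-10 and unc-2) and none was lower, with a median of 1.55. The same rule called 2.21% of all genes higher and 3.31% lower. Only 1 of 4 unc-2, 1 of 3 unc-10 and 1 of 2 unc-18 probe sets passed. Every probe set of sng-1, snn-1, unc-17 and ric-4 passed. unc-17 is also among the A-class markers above. Every A-class array was above the reference arrays for 10 of the 12 and below for 1, orders found for 17.1% and 13.6% of all genes. The 1 below was unc-64, at -0.74 on the log2 scale (limma, adjusted p = 0.0424). The count of 7 was 3 without A-class array 1 or reference array 2, and 4 without A-class array 3 or reference array 4. The module block also gave 4, beside 0.426% of all genes higher. The 12 were listed with these values known and the difference between the lists was not tested.

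**Figure D4:**
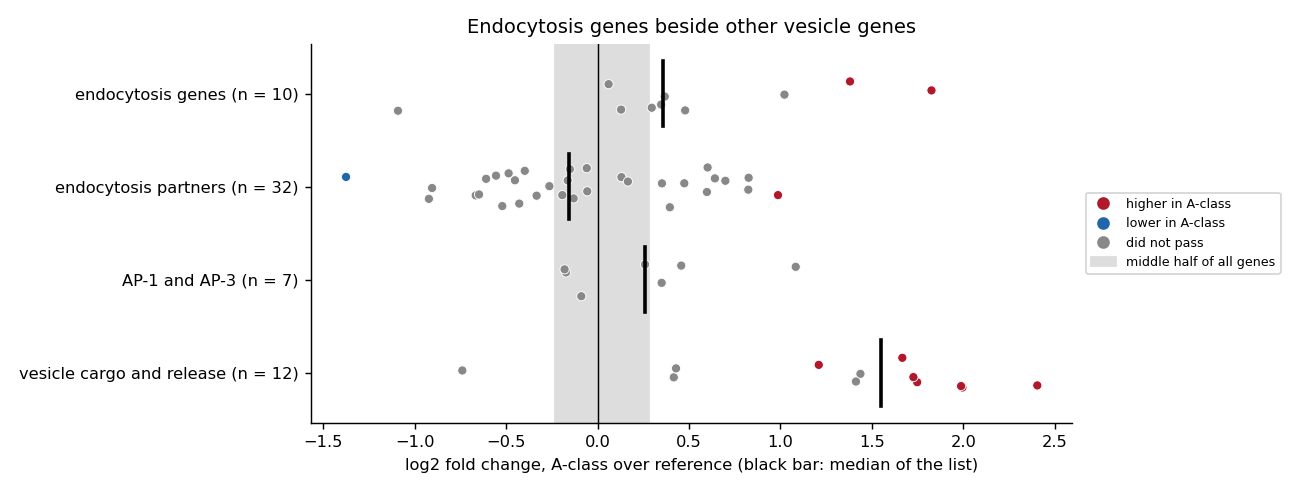
Log2 fold change, A-class over reference, of each gene (points) in 4 lists, with the list's median as a black bar and the middle of all genes between their quartiles as a gray band. The medians are 0.36 for the endocytosis genes, -0.16 for their partners, 0.26 for AP-1 and AP-3 and 1.55 for vesicle cargo and release.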

How the data were processed

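RNA of 3 embryonic A-class and 4 embryonic reference samples was hybridized to Affymetrix C. elegans arrays, with groups and replicates as the labels name them. The intensity that the authors deposited for each probe set had been normalized by RMA and is on a linear scale. The sources used here do not give the version of RMA or which arrays it was run on. RMA fits several probes to 1 value and makes arrays alike in distribution, so levels are relative to each array's total. The deposited hybridization records gave chip lot, fluidics module and day. The value table had 0 columns without a sample. Probe sets were named through the platform annotation (20810 with 1 symbol, 843 with several, 895 with none), and only those with 1 symbol were named. The array's letters for these genes and their places in the genome are not given here.

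Intensities were set to log2 without a filter or pseudocount and fitted with limma 3.58.1 (lmFit and eBayes) in R 4.3.3 over 22548 probe sets, with Benjamini-Hochberg adjustment over all of them. A gene was represented by a probe set ending in _at, then _s_at, then another suffix, and among these by the highest mean intensity. Intervals are 95% intervals from the fit, and the small number of arrays limits the precision. Tables and plots were made in Python 3.11.15 with pandas 2.3.3 and matplotlib 3.10.9. The scripts were tested on simulated data.

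All 10 members with all probe sets were named, with every called partner gene, the clathrin light chain and AP-2 subunits, and counts, medians and called genes of the other lists. The members and lists were chosen with earlier results of these data known. Alternatives were SAM, another variance model, other limits, filters, scalings and probe set rules, fluidics module, hybridization day and replicate number as blocks, and each array left out in turn. The list counts by left-out array and block, and the list sums without the brightest gene, were added after the data were seen.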

Additional observations from a re-analysis of the deposited data

Results flagged for a closer look

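In 1 of the 33 groups of 4 reference values examined, a sample stood far from the others. On the rme-1 probe set 174746_at, reference replicate 3 read 938, while the other reference arrays read 1273 to 1295. On the log2 scale the gap was 0.946 of the whole range. Chance alone marks about 1 in 20 groups of this size. Without this array the rme-1 log2 difference of A-class against reference cells was 0.02, and it did not pass with or without it.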

How the results depend on the processing

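In the main fit the counts of genes or probe sets that passed, higher and lower in A-class cells, were 2 and 0 member genes, 2 and 1 member probe sets, and 1 and 1 partner genes. All 6 counts were 0 with the fluidics module as a block, with the hybridization day as a random block, and with the replicate number as a block. Calls over all genes, higher and lower, also changed with the setting, from 379 and 568 in the main fit. They were 73 and 82 with the module block, 142 and 183 with the day block, and 70 and 78 with the replicate block. SAM gave 528 and 821 over all genes. Leaving out 1 array gave 136 to 357 higher and 174 to 545 lower over all genes. The replicate block gave 0 member genes (and 2 of the 12 vesicle cargo and release genes higher, against 7). Same-numbered samples showed correlations of 0.034, -0.121 and -0.0533 in their deviations from the group means. Differently numbered samples ran from -0.301 to 0.272. With 3 and 4 arrays these correlations cannot decide whether the numbers are a pairing. Blocks leave 3 (module) or 2 (replicate) of 5 residual degrees of freedom. With log2 of the intensity plus 50, member genes and probe sets higher were 1 each and probe sets lower and both partner counts 0. SAM gave 3 member genes and 4 probe sets higher and 3 partners lower. Quantile normalization once more gave 3 member genes and 4 probe sets higher and 0 partners higher, and without the dimmest 30% of probe sets 3 probe sets and 0 partners were higher. At an adjusted p under 0.05, 6 probe sets, 2 partners higher and 3 partners lower passed, and at 1.5-fold 2 partners were higher. Any probe set of a gene gave 1 member and 2 partners lower (with lst-4). Probe sets lower were 0 with a trend and robust variance, median centering or only _at probe sets, and median centering gave 0 partners lower. Leaving out 1 array gave 0 to 2 member genes and probe sets higher (0 without A-class array 1 or 3 or reference array 2, 1 without reference array 4), 0 probe sets lower, and 0 to 1 partners higher and 0 to 1 lower. Without A-class array 2 the 2 member genes were unc-41 and unc-57, and unc-11 was lost (limma, adjusted p = 0.0196). The cause of these changes was not tested.

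Only uncalled members changed sign. unc-26 193738_s_at was at -0.052 with the module block, -0.21 within module 1 and -0.094 to 0.36 with 1 array left out (below 0 without A-class array 1 or 3 or reference array 3). unc-26 176855_s_at was at -0.075 with the replicate block, -0.041 within module 2 and -0.075 to 0.13 with 1 array left out (below 0 without A-class array 3 or reference array 4). unc-11 172152_x_at was at -0.012 to 0.15 (below 0 without A-class array 1) and unc-11 176648_at at -0.066 to 0.16 (below 0 without A-class array 2). apa-2 189016_at was at -0.066 within module 1 and rme-1 174746_at at -0.025 within module 2. Chip lot as a random block was not run, since each group lies in 1 lot.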

Other observations

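Several deposited intensities of the endocytosis genes were equal on more than 1 array. The rme-1 probe set 174746_at had the same value on 3 arrays, as did apa-2 189016_at and dyn-1 188161_s_at, and unc-11 176648_at and 176649_s_at each had a value shared by 2 arrays. These were 5 of the 26 member probe sets (19.2%), while 37% of all probe sets (8352 of 22548) had a value shared by at least 2 arrays.

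Among the partner genes, toca-2, which encodes a membrane-bending protein of the F-BAR family, averaged 95.4 ± 8.64 in A-class cells and 61.0 ± 2.84 in reference cells (SD, n = 3 and 4). Its adjusted p was 0.00792 in limma, but at 0.64 on the log2 scale the difference lay below the fold limit, and the gene passed when the limit was 1.5-fold. The adjusted p of toca-2 was 0.0415 with the module as a block and up to 0.0290 with 1 array left out (limma). Neither of its 2 probe sets passed the main rule.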
